A study of Mus musculus with 20 samples.

Results

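The genes described here encode 10 nuclear receptors of lipid, sterol, bile acid, drug and hormone sensing other than Ppara: Ppard, Pparg, Nr1h3, Nr1h4, Nr1i2, Nr1i3, Nr0b2, Esrra, Nr3c1 and Nr2f6. They were chosen by name, from 21896 protein-coding genes in the RefSeq table of mm10. Their chromatin was read as the consensus intervals of 3 histone marks whose midpoint lay in the gene body or within 10 kb of it. That gave 115 of 65776 H3K27ac intervals, 199 of 103014 H3K4me1 intervals and 103 of 46568 H3K9ac intervals. Several of the intervals in these windows lie nearest to the start of a neighbouring gene, and this is stated for some of those used.

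All livers came from male C57BL/6 mice, 9 weeks old, that had fasted for 24 hours from 3 pm. The 4 genotypes were WT, Cpt2 L-/- (Cpt2 removed in the liver, called Cpt2 KO here), Ppara -/- (Ppara removed in the whole body, called Ppara KO) and Cpt2 L-/- ; Ppara -/- (called DKO). Cpt2 encodes the mitochondrial enzyme that readies long-chain fatty acids for oxidation, and Ppara the fatty acid receptor that drives the fasting program of the liver. The labels do not give the Cre line behind the Cpt2 deletion, nor the liver cells in which it acts. H3K27ac and H3K4me1 were profiled in 2 livers of each genotype, 8 livers per mark, and H3K9ac in 1 WT and 1 Cpt2 KO liver. No label says whether the 2 livers of a genotype came from separate cohorts, so p-values measure the spread between these livers only.

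H3K4me1 marks enhancers whether or not they are active, while H3K27ac and H3K9ac mark active enhancers and promoters. The value of an interval in a liver is the highest fold enrichment over the pooled input among the authors' peaks that overlap it, and an interval with no overlapping peak has no call there. Peak lists held 44454 to 48929 H3K27ac peaks and 61189 to 72151 H3K4me1 peaks per liver. Depth in reads is unknown, so an interval without a call is one where no peak passed the authors' threshold, not one without the mark. Hepatocyte markers were marked, as in liver tissue: all 6 of 6, Alb and Hnf4a included, had an H3K27ac call in all 8 livers. Summed over the markers of a cell type, H3K27ac at Kupffer cell, endothelial and stellate cell markers was higher in the livers without Cpt2. The sums use folds before centring, and a marker without a call adds 0. The 6 hepatocyte markers summed to 122 to 131 in WT, 102 to 126 in Ppara KO, 112 to 119 in Cpt2 KO and 130 to 152 in DKO livers. The summed fold over 6 Kupffer cell and macrophage markers was 35.8 to 39.2 in WT, 40.8 to 44.6 in Ppara KO, 54.3 to 65.6 in Cpt2 KO and 74 to 90.8 in DKO livers. Over 5 endothelial markers it was 67.7 to 71.8, 69.6 to 78.5, 101 to 115 and 103 to 110 in the same order, and over 5 stellate cell markers 22 to 25.1, 14.2 to 19.9, 41.2 to 45.7 and 33 to 38.8. Of 5 cholangiocyte markers Krt19, Krt7, Epcam and Spp1 had no call in any liver, and Sox9 had 6, at 12.5 and 19.7 in WT, 5.81 and 7.25 in Ppara KO, 6.69 and 9.57 in DKO and none in Cpt2 KO. Of 4 T and B cell markers Cd3e had no call, Ptprc 6 calls and Cd79a a call in all 8 livers, and their sum was 10.2 to 16.5 in WT, 14.9 to 19.4 in Ppara KO, 19.6 to 22.9 in Cpt2 KO and 24 to 24.3 in DKO livers. The 3 adipocyte markers summed to 24.3 to 37.6 in WT, 17.3 to 23.4 in Ppara KO, 46.3 to 49.4 in Cpt2 KO and 26.9 to 32.7 in DKO livers. In whole tissue, fewer cells of a type and less mark per cell cannot be told apart.

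Nuclear receptors are transcription factors that a small lipid-soluble molecule switches on or off. Most of the receptors described here bind DNA paired with the retinoid X receptor, at repeats of the hexamer AGGTCA whose spacing and orientation select the pair. In the liver they divide the handling of fat, cholesterol, bile acids, drugs and the fasting hormones among them: Ppard and Pparg sense fatty acids, Nr1h3 (LXR alpha) oxysterols, Nr1h4 (FXR) bile acids, Nr1i2 (PXR) and Nr1i3 (CAR) drugs and other foreign compounds, and Nr3c1 the glucocorticoids that rise in fasting. Nr0b2 (SHP) has no DNA-binding domain and represses other receptors, Esrra is an orphan receptor of mitochondrial genes, and Nr2f6 is an orphan repressor.

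RefSeq promoter windows of mm10, 250 bases before to 50 bases after a start, were held for 9 of the 10 genes (12 windows). They are shown for the 3 starts at which the H3K27ac values below differ most in kind: the downstream Pparg start, covered by peaks in every liver except WT, the Nr1i3 start, and the Nr0b2 start. Capitals mark every match, on either strand, to the motifs named after the sequences. All 3 lie on the + strand, at chr6:115421816-115422115, chr1:171213720-171214019 and chr4:133553126-133553425.
Pparg, start 3: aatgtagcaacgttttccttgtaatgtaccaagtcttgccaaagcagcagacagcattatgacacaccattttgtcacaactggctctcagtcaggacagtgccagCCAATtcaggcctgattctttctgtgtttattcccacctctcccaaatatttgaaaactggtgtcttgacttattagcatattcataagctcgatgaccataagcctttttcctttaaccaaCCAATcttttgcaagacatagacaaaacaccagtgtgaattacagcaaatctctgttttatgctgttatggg
Nr1i3: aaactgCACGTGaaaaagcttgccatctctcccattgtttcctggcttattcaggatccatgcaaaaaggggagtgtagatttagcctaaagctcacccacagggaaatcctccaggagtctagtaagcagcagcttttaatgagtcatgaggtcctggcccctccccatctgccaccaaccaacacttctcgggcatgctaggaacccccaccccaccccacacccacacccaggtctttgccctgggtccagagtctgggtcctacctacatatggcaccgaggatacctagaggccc
Nr0b2: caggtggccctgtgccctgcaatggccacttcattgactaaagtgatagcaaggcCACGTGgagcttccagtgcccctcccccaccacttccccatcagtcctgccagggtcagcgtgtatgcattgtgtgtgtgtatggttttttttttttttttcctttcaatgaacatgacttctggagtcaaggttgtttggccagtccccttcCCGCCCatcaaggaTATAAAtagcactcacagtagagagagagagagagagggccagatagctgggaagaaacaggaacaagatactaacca
The Pparg window is poor in G and C (40.3%) and holds the CCAAT box (CCAAT) at 2 places, beginning at bases -144 and -22 from the start, with the first transcribed base as 1. The first and second Pparg windows, chr6:115360894-115361193 and chr6:115362099-115362398, have 80.3% and 62.7% G and C, against a median of 52.7% over all 32851 windows. The Nr0b2 window has the TATA box (TATAAA) beginning at base -28, a GC box (GGGCGG, here on the opposite strand) at -42 and an E-box (CACGTG) at -195. The Nr1i3 window holds 1 E-box, beginning at base -244. Of all promoter windows 37.4% held a CCAAT box, 13.6% a TATA box, 35.7% a GC box and 7.15% an E-box. The hexamer AGGTCA itself was found in 3 of the 12 windows, the first and second of Pparg and that of Nr1h4, and in 16.3% of all windows. None of the 12 windows held its repeats AGGTCANAGGTCA (DR1), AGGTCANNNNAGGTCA (DR4), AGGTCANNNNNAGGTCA (DR5), AGGTCANTGACCT (IR1) or TGACCTNNNNNNAGGTCA (ER6), the extended form TCAAGGTCA or the glucocorticoid palindrome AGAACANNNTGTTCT. These exact letters were rare everywhere: TCAAGGTCA was in 0.423% of all windows and each of the others in 0.0396% or fewer.

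Ppard, the PPAR subtype found in most tissues, was marked at its start in all 8 livers and had weak calls deep in its gene body that the WT livers alone carried. At the start (mm10, chromosome 17, 28232629 to 28233727) the H3K27ac fold was 15.2 and 25.6 for WT, 12.7 and 16.8 for Cpt2 KO, 12 and 14.2 for Ppara KO and 20.3 and 18.6 for DKO livers. The genotypes overlapped there, and neither the Ppara difference (log2 -0.12) nor the Cpt2 difference (log2 -0.19) passed the test. The next interval, inside the gene body at 28234043 to 28237591, fell in Cpt2-null livers. Its folds were 8.62 and 10 in WT, 6.1 and 7.4 in Ppara KO, 8.82 and 5.2 in Cpt2 KO, and 4 and 6.64 in DKO livers. The Cpt2-null livers were lower by 0.69 on the log2 scale (difference -0.69, SE 0.21, limma adjusted p = 0.0462), with Cpt2 KO replicate 1 and DKO replicate 2 inside the range of the Cpt2-intact livers. The call was kept when DKO replicate 2 was left out and lost without any of the other 7 livers (adjusted p up to 0.165). Without centring the difference was -0.42 (adjusted p = 0.183).

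Farther into Ppard, 5 H3K27ac intervals were called in both WT livers and in no other: one at 28258683 to 28259061 and 4 between 28286590 and 28290391. Their summits lay nearest the start of 1810013A23Rik, and their folds were low in WT too, from 3.33 to 7.6. Of all H3K27ac intervals 3.29% had that pattern. A neighbouring interval at 28290557 to 28290890 had the opposite pattern, with folds of 4.8 and 4.56 in Cpt2 KO livers, 5.43 in DKO replicate 2 and no call elsewhere. In all, 10 and 8 of the 12 Ppard intervals were called in the WT livers, against 3 to 5 in each of the other 6. The H3K4me1 calls did not follow these H3K27ac calls: at 4 of the 5 intervals called only in WT, H3K4me1 peaks were called in all 8 livers. Those 4 share the broad H3K4me1 intervals 28285472 to 28288990 and 28289396 to 28291019, and the latter also covers the interval at 28290557.

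**Figure D1:**
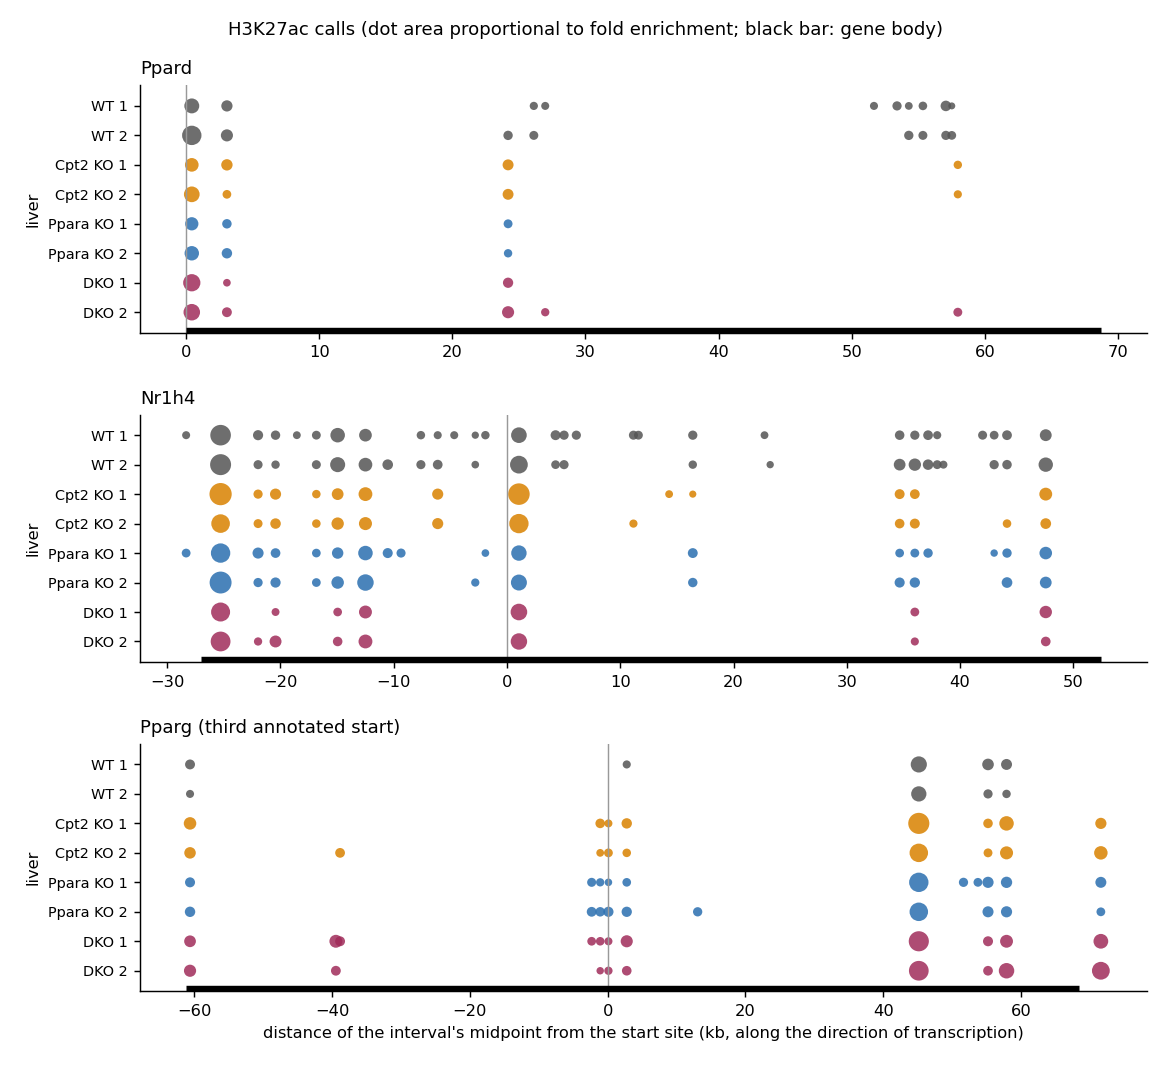
Map of the H3K27ac calls at Ppard, Nr1h4 and Pparg in the 8 livers, by distance of an interval's midpoint from the start in kb; a dot is a call, its area is proportional to the fold enrichment and the black bar is the gene body. Both WT livers have the most calls at Ppard and Nr1h4, and at Pparg 3 intervals, among them the one over the third start and the one past the end of the gene, are called in all 6 knockout livers and in neither WT liver.

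Pparg, the PPAR subtype of fat storage that is scarce in lean liver, had fewer H3K27ac calls in WT than in any other genotype. Of its 14 intervals 5 and 4 were called in the WT livers and 8 to 11 in each of the other 6. The interval over its first start (chromosome 6, 115360767 to 115362122) had folds of 6.72 and 4.44 for WT, 10.7 and 9.07 for Cpt2 KO, 6.83 and 7.39 for Ppara KO and 9.37 and 10.1 for DKO livers. Before centring both Cpt2-null genotypes were above both Cpt2-intact ones without overlap, but the centred difference of log2 0.38 did not pass the test (adjusted p = 0.223). Uncentred, the median Cpt2 difference of all H3K27ac intervals tested was itself log2 0.25. How many of them separate without overlap was not counted. The strongest interval, inside the gene body at 115462267 to 115472177, had folds of 17.8 and 15.9 in WT and of 23.3 to 30.4 in the other 6 livers. No WT value reached those of the other genotypes, and the Ppara, Cpt2 and interaction terms were 0.25, 0.14 and -0.60 on the log2 scale, with adjusted p of 0.319, 0.546 and 0.336.

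At 3 Pparg intervals H3K27ac was called in all 6 knockout livers and in neither WT liver, a pattern singled out after its values were seen. The interval at 115421810 to 115422535 covers the third start, whose window is printed above. Its folds were 4.38 and 5.28 for Cpt2 KO, 3.89 and 7.06 for Ppara KO and 4.44 and 4.69 for DKO livers. The interval just before it, 115420191 to 115421763, had folds of 3.78 to 6.25 in the 6 livers. The third, 115492814 to 115494481, has its midpoint 3243 bases past the end of the gene and its summits nearest the Gm36301 start. Its folds were 8.57 and 12.4 for Cpt2 KO, 8.24 and 5.25 for Ppara KO and 14.8 and 21.6 for DKO livers. Over all H3K27ac intervals 2.59% had this pattern, and 3 of 115 for the 10 genes is 2.61%, so the share at these genes equals the background. With peaks of a deposited −log10 q of at least 10 alone 2 intervals had this pattern, and leaving out WT replicate 1 gave 6.

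H3K4me1 at the same places followed the acetylation past the end of the gene and not around the third start. Around the third start an H3K4me1 interval (115419252 to 115422855) was called in all 8 livers, at 8.74 and 5.42 for WT and 6.75 to 9.23 for the others. Past the end of the gene the H3K4me1 interval at 115492878 to 115494515 was itself called in the 6 knockout livers and in neither WT liver, with folds of 9.91 and 7.2, 7.41 and 8.73, and 13.9 and 13.2 in Cpt2 KO, Ppara KO and DKO. Of all H3K4me1 intervals 0.85% had that pattern. An H3K27ac interval at 115382378 to 115382848 was called in the DKO livers alone, at 11.4 and 6.56. It was the 1 of 115 with that pattern, whose share over all H3K27ac intervals was not computed. The H3K4me1 interval beside it, 115381906 to 115382758, had folds of 7.61 and 7.58 in DKO, 5.4 in Ppara KO replicate 2 and no call elsewhere. At 115419535 to 115419939 H3K27ac was called in both Ppara KO livers (5.56 and 6.54) and in DKO replicate 1 (5.17). H3K4me1 at 115434355 to 115435483 was called in Cpt2 KO replicate 1 (6.96) and both DKO livers (6 and 3.57). The Kupffer cell, endothelial and stellate cell markers were also higher in the Cpt2-null livers, as given above. In Ppara KO, where the 3 Pparg intervals were called too, the Kupffer cell sum was 40.8 to 44.6 against 35.8 to 39.2 in WT. The endothelial sum there overlapped WT, at 69.6 to 78.5 against 67.7 to 71.8. The stellate cell sum was lower, at 14.2 to 19.9 against 22 to 25.1, as was the adipocyte sum, at 17.3 to 23.4 against 24.3 to 37.6. The part of these cell types in the Pparg calls was not tested.

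Nr1h3, the oxysterol receptor that turns on cholesterol export and fat synthesis, was marked in all 8 livers at its starts, and no interval near it passed a test. The interval over its starts (chromosome 2, 91193208 to 91197710) had H3K27ac folds of 27.4 and 30.1 for WT, 37.6 and 34.7 for Cpt2 KO, 26.9 and 29.2 for Ppara KO and 30.4 and 41.2 for DKO livers. The lowest Cpt2-null value, 30.4, exceeded the highest Cpt2-intact value, 30.1, by a small margin, and on the centred scale the difference was log2 0.07 (SE 0.11, adjusted p = 0.705). Its summit lay 101 to 199 bases after the nearer start in all 8 livers. The interval that covers the start of Madd, 91182419 to 91183490, past the end of Nr1h3, showed the largest Ppara difference near this gene, log2 -0.59 (SE 0.24, adjusted p = 0.152), with 11.1 and 9.21 in WT and 4.8 and 5.88 in Ppara KO livers. H3K4me1 at 91193200 to 91193880, the strongest near the gene, was 5.64 to 8.36 over all livers. A weak H3K4me1 interval at 91191754 to 91192072 was called in WT (5.4 and 5.2) and Ppara KO replicate 1 (4) and in no Cpt2-null liver.

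Nr1h4, the bile acid receptor, had the largest number of H3K27ac intervals of the 10 genes and fewer calls in each mutant than in WT. Of its 34 H3K27ac intervals 29 and 23 were called in the WT livers, 18 and 13 in Ppara KO, 13 and 13 in Cpt2 KO, and 7 and 8 in DKO livers. Over all H3K27ac intervals the WT livers had calls at 52.2% and 51.5% and the other 6 at 48.8% to 59%. No mutant liver reached either WT count, and both DKO livers were below all others. The annotated start in the RefSeq table lies inside the gene body, and the interval over it (chromosome 10, 89502969 to 89508228) had folds of 16.7 and 21.5 for WT, 31.6 and 25.5 for Cpt2 KO, 16.2 and 17.4 for Ppara KO and 18.8 and 18.4 for DKO. Cpt2 KO was the highest there, and no term passed the test (the lowest adjusted p was 0.0741, for Ppara). The strongest interval, 89529199 to 89534661, covers the upper end of the gene body and ranged from 23.6 to 33.7. Its Cpt2 difference was log2 -0.39 (SE 0.13, adjusted p = 0.0596), which did not pass. Both of these intervals were called in all 8 livers.

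One Nr1h4 interval fell with both deletions. At 89520383 to 89522812, inside the gene body and with its summits at -15875 to -13915 bases from the annotated start, the folds were 14.4 and 15.4 for WT, 9.43 and 10.4 for Cpt2 KO, 8.9 and 10.6 for Ppara KO and 5.14 and 6.21 for DKO livers. WT was highest and DKO lowest without overlap, with the single knockouts between them. Loss of Ppara lowered it by log2 -0.75 (SE 0.17, limma adjusted p = 0.0211) and loss of Cpt2 by log2 -0.95 (SE 0.17, limma adjusted p = 0.00764). The interaction was log2 -0.28 (SE 0.35, adjusted p = 0.738), which its SE does not separate from 0. The Cpt2 call was kept without any single liver (adjusted p 0.0154 to 0.0371), and the Ppara call without WT replicate 1, WT replicate 2 or Cpt2 KO replicate 1 but not without any of the other 5 (adjusted p up to 0.108). With the width-weighted mean of the peaks in place of the highest, the Ppara difference was -0.57 (adjusted p = 0.0687).

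The neighbouring interval, 89517988 to 89520299, did not share this pattern, at 11 and 12.8 for WT, 13 and 11.6 for Cpt2 KO, 14.4 and 18.5 for Ppara KO and 11.4 and 13.1 for DKO livers. H3K4me1 over both intervals together (89518039 to 89522866) was 9.77 to 13.3 in all 8 livers, with a Cpt2 difference of log2 -0.11 (adjusted p = 0.848). H3K9ac had 3 intervals over the former and 2 over the latter, the one that fell, and all 5 were called in the WT liver and not in the Cpt2 KO liver.

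Weaker Nr1h4 intervals were present or absent by genotype. At 89512197 to 89513335 H3K27ac was called in all 4 Ppara-intact livers, at 4.43 and 6.45 for WT and 8.44 and 8.43 for Cpt2 KO, and in no Ppara-null liver. H3K4me1 over it (89512273 to 89514581) was called in all 8 livers at 5.11 to 7.89. This was the one H3K27ac interval of the 10 genes with calls lost in Ppara-null livers (1 of 115, background 1.73%), and the Pparg interval at 115419535 was the one gained (1 of 115, background 1.63%). A further 3 Nr1h4 intervals were called in both WT livers and 1 Ppara KO liver and in no Cpt2-null liver: 89463336 to 89463970 (5.22, 5.86 and 3.75), 89469348 to 89469624 (6.43, 7.53 and 5.99) and 89508799 to 89510102 (3.62, 4 and 4.62). At 4 intervals calls were made in WT alone, with folds of 4.5 to 6.72, at 89468331, 89501289, 89502080 and 89514124. The intervals beginning at 89471619 and 89523146, chosen after their values were seen, were called in every liver except DKO. Their folds were 5.2 to 9.39 and 4.92 to 5.5. They were the 2 of 115 with that pattern, and its share over all H3K27ac intervals was not computed. Summits of the intervals beginning at 89463336, 89468331, 89469348 and 89471619 lay nearest the Gas2l3 start.

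Nr0b2, the repressor that bile acids induce through Nr1h4, was higher without Ppara past the end of the gene. At 133557767 to 133560419 on chromosome 4 the H3K27ac folds were 13.6 and 16 for WT, 10.7 and 9.69 for Cpt2 KO, 17.3 and 17.7 for Ppara KO and 17.5 and 25.6 for DKO livers. All 4 Ppara-null values were above all 4 Ppara-intact ones, by log2 0.62 (SE 0.15, limma adjusted p = 0.0269), an average of log2 0.26 for Ppara KO minus WT and 0.98 for DKO minus Cpt2 KO. The call was kept without WT replicate 1, WT replicate 2 or DKO replicate 1 and lost without any of the other 5 livers (adjusted p up to 0.114). Without centring the difference was 0.65, at an adjusted p of 0.0507, and with the smallest peak width as a covariate it was 0.59, at an adjusted p of 0.0715.

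The interval over the Nr0b2 start, 133551566 to 133557529, spans the gene and varied more. Its folds were 21.4 and 16.2 for WT, 10.1 and 9.42 for Cpt2 KO, 18.9 and 25.5 for Ppara KO and 12 and 34.7 for DKO livers. The DKO livers stood far apart, one below and one above all Cpt2-intact livers. The Cpt2 difference was log2 -0.78 (SE 0.24, adjusted p = 0.0518) and the Ppara difference 0.62 (adjusted p = 0.145), and neither passed. H3K9ac had 4 intervals over it, 2 called in both the WT and the Cpt2 KO liver and 2 in the WT liver alone. The strongest H3K4me1 interval, 133560855 to 133563430, was 15.5 and 13.6 for WT, 6.91 and 12.5 for Cpt2 KO, 13.9 and 11.7 for Ppara KO and 10.5 and 10.6 for DKO, and did not pass either test (adjusted p = 0.496 for Cpt2, the lower of the pair). Over the start H3K4me1 (133551528 to 133554984) was 4.38 and 6 in WT and 6.54 to 8.89 in the other 6 livers.

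**Figure D2:**
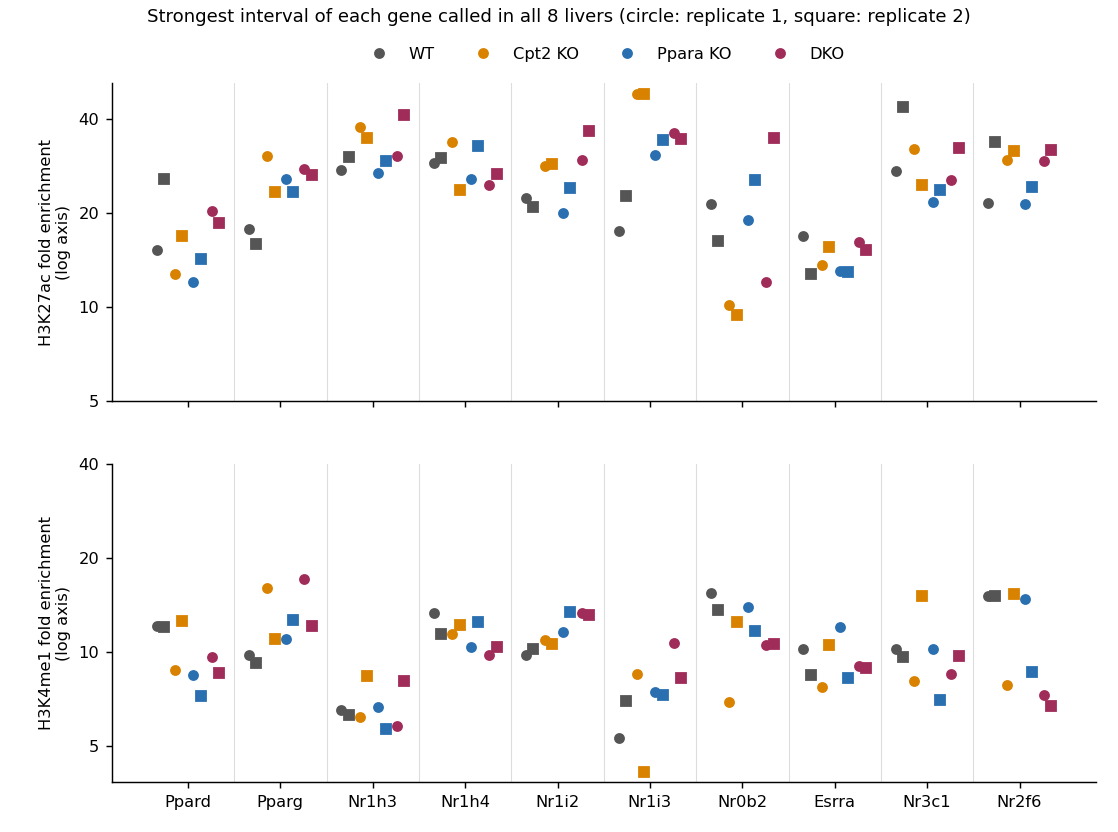
Fold enrichment of the strongest interval called in all 8 livers, for each of the 10 genes, H3K27ac above and H3K4me1 below, on log axes; colours are genotypes, circles replicate 1 and squares replicate 2. At Nr1i3 H3K27ac both WT livers (17.5 and 22.7) lie below the 6 others and both Cpt2 KO livers (47.9 each) above them, and at Nr0b2 the DKO livers lie at 12 and 34.7.

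Nr1i3, the drug receptor CAR that fasting is known to induce, was higher without Cpt2 on average, while the livers with and without Ppara showed unlike values. Its H3K27ac lay mainly in 1 domain over the gene (chromosome 1, 171211673 to 171228467), which also covers the start of its neighbour Apoa2. The summit of the highest peak was 173 to 733 bases after the Nr1i3 start in all 8 livers. The folds were 17.5 and 22.7 for WT, 47.9 and 47.9 for Cpt2 KO, 30.6 and 34.2 for Ppara KO and 36.1 and 34.4 for DKO livers. WT was lowest and Cpt2 KO highest without overlap, while Ppara KO and DKO lay close together. Averaged over both Ppara states, Cpt2-null livers were higher by log2 0.43 (SE 0.11, limma adjusted p = 0.0262). That average joins log2 1.04 for Cpt2 KO minus WT and log2 -0.19 for DKO minus Ppara KO. The interaction was -1.23 (SE 0.22, adjusted p = 0.0774), the lowest adjusted p of the 32 intervals for that term and short of the threshold (unadjusted p = 7.98e-05), so the difference between the Ppara states did not pass the test over all intervals.

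The Nr1i3 value rests on the height of its highest peak. With the width-weighted mean of the peaks in the domain the Cpt2 difference was 0.15 (adjusted p = 0.5). It passed without WT replicate 1, WT replicate 2 or DKO replicate 2, and missed the threshold without any of the other 5 livers (adjusted p up to 0.101). H3K4me1 was moderate across the gene: the strongest interval called in all 8 livers, 171223167 to 171223590 nearest the Apoa2 start, was 4.1 to 10.7. The interval before the Nr1i3 start, 171211715 to 171213562, was 4.07 to 9.18, and no Nr1i3 H3K4me1 term passed. A weak H3K4me1 interval at 171224533 to 171224926 was called in Cpt2 KO replicate 1 (4.72) and both DKO livers (5.76 and 6.64).

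Nr1i2, the drug receptor PXR, was marked by 1 long H3K27ac domain over its start (chromosome 16, 38279006 to 38296234). Its folds were 22.3 and 20.8 for WT, 28.2 and 28.6 for Cpt2 KO, 19.9 and 24 for Ppara KO and 29.6 and 36.5 for DKO livers. All 4 Cpt2-null values were above all 4 Cpt2-intact ones before centring, and the centred difference was log2 0.23 (SE 0.12, adjusted p = 0.235), which did not pass. Uncentred, the median Cpt2 difference of all H3K27ac intervals tested was log2 0.25, and how many of them separate in this way was not counted. The interval at 38276853 to 38277781 was called in both WT livers (7.35 and 6.88) and Ppara KO replicate 1 (5.1) and in no Cpt2-null liver. H3K4me1 at 38280491 to 38283151, the strongest of the gene, was 9.74 to 13.4 in all 8 livers.

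Esrra, the orphan receptor of mitochondrial genes, was marked in all 8 livers at its start, and calls past its end differed by Cpt2. Over the start (chromosome 19, 6918255 to 6923206) the H3K27ac folds were 16.8 and 12.7 for WT, 13.6 and 15.5 for Cpt2 KO, 13 and 12.9 for Ppara KO and 16.1 and 15.2 for DKO, and the genotypes overlapped. An interval at 6906349 to 6907862, with its midpoint 3871 bases past the gene and nearest the Trmt112 start, was called in all 4 Cpt2-intact livers (5.43 and 6.39 in WT, 5.91 and 4.65 in Ppara KO) and in no Cpt2-null liver. H3K4me1 there (6904124 to 6908370) was called in all 8 livers at 7.71 to 12. An interval inside the gene, 6911113 to 6912405, with its summits nearest the Prdx5 start, was called in the WT livers alone (6.32 and 7.88). Weak H3K4me1 intervals at 6913830 to 6914513 and 6920855 to 6921198 were called in both WT livers and Cpt2 KO replicate 2 and in no Ppara-null liver, with folds of 4.55 to 6.37.

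Nr3c1, the glucocorticoid receptor, spans 108877 bases of chromosome 18, and no start was held for it. Its strongest H3K27ac intervals lay side by side inside the gene body. At 39488373 to 39490737 the folds were 27.2 and 43.6 for WT, 32 and 24.6 for Cpt2 KO, 21.6 and 23.6 for Ppara KO and 25.4 and 32.3 for DKO. Both Ppara KO livers were the lowest, and the Ppara difference of log2 -0.32 (SE 0.13) did not pass (adjusted p = 0.16). Its neighbour at 39490879 to 39492130 was 19.3 and 22.2 in Ppara KO and 21.8 to 30.3 in the others, which overlap. Farther inside, 39486746 to 39487318 was called in WT alone (8.25 and 6.5), 39447848 to 39448280 in Ppara KO alone (7.61 and 5), and 39485914 to 39486669 in WT (4.8 and 6.5) and Ppara KO replicate 1 (5.2). The share of all H3K27ac intervals called in Ppara KO alone was not computed. H3K4me1 was thinly spread: of 40 intervals 5 were called in all 8 livers, 3 in WT alone (39447961, 39451149 and 39452601), 1 in WT and Cpt2 KO replicate 2 (39454867) and 1 in WT and Ppara KO replicate 1 (39457755). The interval at 39436878 to 39438514, chosen after its values were seen, was called in every liver except DKO. The share of all H3K4me1 intervals with that pattern was not computed.

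Nr2f6, the orphan repressor, was lower in each mutant than in WT over its gene body, where only the Cpt2 difference passed, and was even just upstream. The interval at 71375741 to 71381916 on chromosome 8 ends just short of the annotated start. Its H3K27ac folds were 19.3 and 27.1 for WT, 12.8 and 17.5 for Cpt2 KO, 15.7 and 12.7 for Ppara KO and 12.4 and 14.2 for DKO. WT was highest and the 3 mutants overlapped. The Cpt2 difference was log2 -0.62 (SE 0.18, limma adjusted p = 0.0382) and the Ppara difference -0.47 (adjusted p = 0.131). The former joins log2 -0.84 for Cpt2 KO minus WT and -0.40 for DKO minus Ppara KO, and Ppara KO minus WT was log2 -0.69. The Cpt2 call was lost with no centring (-0.35, adjusted p = 0.209) and with quantile normalization (-0.56, adjusted p = 0.0538), and it was lost without 5 of the 8 livers (adjusted p up to 0.16), being kept without WT replicate 1, Cpt2 KO replicate 2 or Ppara KO replicate 2. The interval before the start, 71382021 to 71386310, was 21.4 to 33.8 with a Cpt2 difference of 0.03 (adjusted p = 0.887). Intervals at 71373227 and 71374536, with summits nearest the Ocel1 start, were called in WT alone, with folds of 3.1 to 5.11.

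The strongest H3K4me1 interval of Nr2f6, 71375713 to 71380985, had unlike values within genotypes. Its folds were 15.1 and 15.1 for WT, 7.84 and 15.3 for Cpt2 KO, 14.8 and 8.6 for Ppara KO and 7.27 and 6.7 for DKO. The 4 high values came from the 4 libraries whose smallest peak was 196 to 200 bases wide, and the 4 low values from those with 210 to 221 bases. The genotype differences at this interval (log2 -0.54 for Ppara and -0.58 for Cpt2) did not pass (adjusted p = 0.322 and 0.472). For H3K27ac the smallest peak was 217 to 223 bases wide in Cpt2-null livers and 198 to 210 in Cpt2-intact ones, so peak width and the loss of Cpt2 cannot be told apart in that mark.

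Counted together, 2 of the 32 intervals called in all 8 livers passed for Ppara, 1 higher and 1 lower, where 7.34% of the 18281 H3K27ac intervals tested did. For Cpt2 4 of 32 passed, 1 higher and 3 lower, against 12.3% of all. Both shares are near the background and are no result about these genes. For the interaction 0 of 32 passed in limma (4 at an unadjusted p under 0.05), against 0.00547% of all. The median difference over the 32 was log2 -0.03 for Ppara and -0.13 for Cpt2, beside -0.01 for both over all intervals tested. The Cpt2 split moved with the scaling: when libraries were not centred, which moves the median of all intervals to 0.25, 5 members were higher and 1 lower, and with quantile normalization 1 and 1. For Ppara it was 0 higher and 1 lower without centring. With the smallest peak width as a covariate 0 of 32 passed for Cpt2, and the Nr2f6 difference changed sign (0.01).

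**Figure D3:**
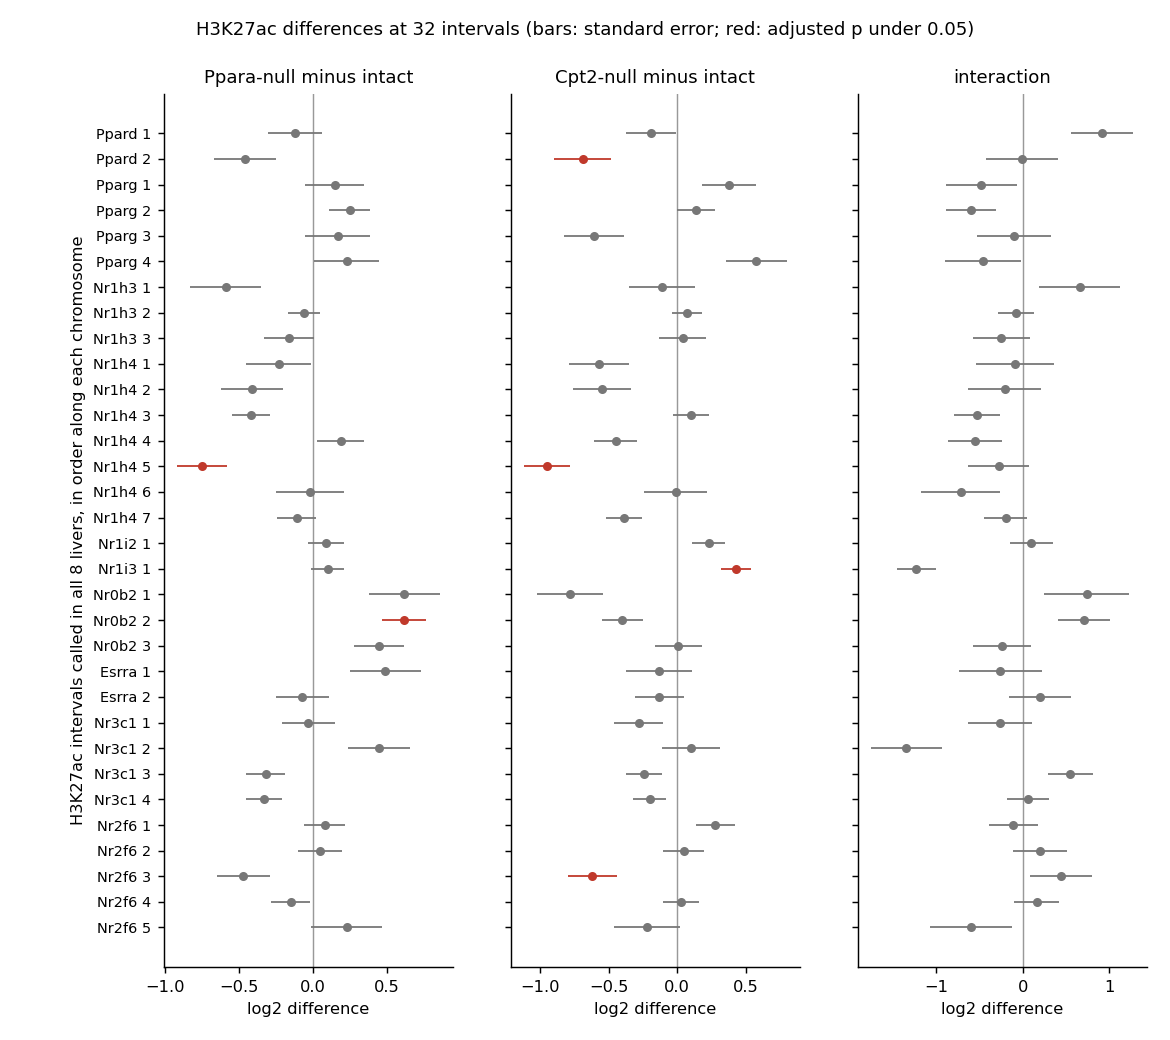
Log2 differences in H3K27ac fold at the 32 intervals of the 10 genes called in all 8 livers, for Ppara-null minus Ppara-intact, Cpt2-null minus Cpt2-intact and their interaction; points are limma estimates, bars standard errors, and red marks an adjusted p under 0.05. Red points are the fifth Nr1h4 interval (-0.75 and -0.95), an Nr0b2 interval (0.62), and for Cpt2 those of Ppard (-0.69), Nr2f6 (-0.62) and Nr1i3 (0.43).

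The enhancer mark H3K4me1 gave no passing interval for these genes. Of 49 intervals called in all 8 livers 0 passed in limma for Ppara (6 at an unadjusted p under 0.05, lowest adjusted p 0.249), 0 for Cpt2 (3 unadjusted, lowest adjusted p 0.472) and 0 for the interaction (1 unadjusted, lowest adjusted p 1). Over all 19526 intervals tested the shares were 0.128%, 0% and 0%. Calls at H3K4me1 intervals differed by Ppara at 7 of 199, with 2 gained (background 1.96%) and 5 lost (background 2.84%). They differed by Cpt2 at 6, with 2 gained (background 1.41%) and 4 lost (background 1.3%). The gains by Ppara were the Pparg interval at 115381906 and one at 133545021, upstream of Nr0b2 and nearest the Nudc start, at 5.42 and 5 for Ppara KO and 5.17 for DKO replicate 2. The losses by Ppara were at Nr1h4 (89492058 and 89497600), Esrra and Nr3c1. The losses by Cpt2 were at Nr1h3, Nr1h4 (89515168), Nr0b2 (133565375) and Nr3c1. In WT alone 11 H3K4me1 intervals were called: 1 at Ppard (28239331), 6 at Nr1h4, 3 at Nr3c1 and 1 at Nr2f6 (background 1.85%).

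For H3K27ac the calls differed by Cpt2 at 7 of 115 intervals, with 1 gained, at Ppard (background 4.5%), and 6 lost (background 2.49%). The losses were 3 at Nr1h4 and 1 each at Nr1i2, Esrra and Nr3c1. In WT alone 13 of 115 were called, or 11.3%, with 5 at Ppard, 4 at Nr1h4, 2 at Nr2f6 and 1 each at Esrra and Nr3c1, where 3.29% of all H3K27ac intervals had that pattern. Every fold at these 13 lay between 3.1 and 8.25. Counting peaks with a −log10 q of at least 10 gave 8, and leaving out WT replicate 2 gave 28. At 11 of the 13 H3K4me1 was called in all 8 livers. Of the 13, 10 overlapped an H3K9ac interval: 7 overlapped one called in both the WT and the Cpt2 KO liver, 4 one called in Cpt2 KO alone and 0 one called in WT alone. At these intervals H3K9ac calls did not repeat the H3K27ac pattern.

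Summed over the 10 genes, more intervals were called in the WT livers than in the others. H3K27ac was called at 82 and 69 of the 115 in the WT livers, or 71.3% and 60%, against 40.9% to 54.8% in the other 6. The shares over all H3K27ac intervals, given with Nr1h4, were no higher in WT than in the Cpt2-null livers. Not all of the genes shared this. Nr1h4, Ppard, Nr2f6 and Esrra had more calls in both WT livers than in any other. Nr2f6 had 8 and 8 in WT against 5 to 6 in the others, and Esrra 4 and 7 against 2 to 3. Pparg had fewer calls in WT, and Nr3c1 had 10 and 6 in WT against 5 to 7 in the others. In H3K4me1 the WT livers had calls at 63.8% and 60.8% of 199 intervals and the others at 42.7% to 57.8%, beside 47.2% and 49.3%, and 44.1% to 51%, of all. The median fold of all H3K27ac peaks was 6.69 and 7 in WT and 6.75 and 7.17 in Ppara KO livers. It was 8.02 and 7.42 in Cpt2 KO and 7.75 and 8.21 in DKO livers. H3K27ac peaks covered 47.79 and 47.09 Mb in WT and 47.38 and 44.82 in Ppara KO. They covered 42.15 and 44.56 Mb in Cpt2 KO and 42 and 44.88 in DKO. H3K4me1 peaks covered 52.47 and 53.24 Mb in WT and 53.32 and 42.66 in Ppara KO. In Cpt2 KO they covered 41.38 and 53.54 and in DKO 38.75 and 45.96. The part of fold and coverage in the calls was not tested.

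**Figure D4:**
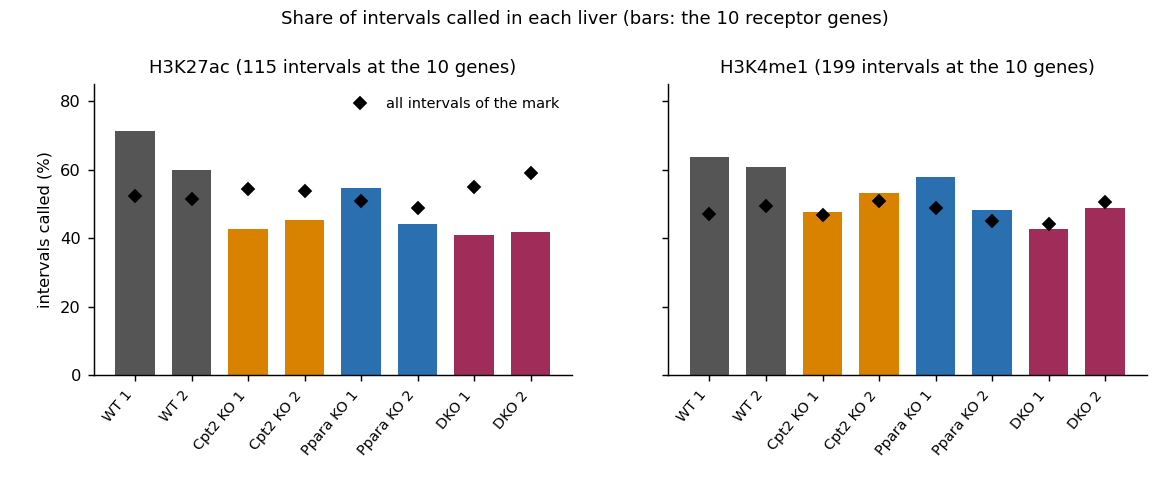
Share of the intervals called in each liver, in percent, for H3K27ac (left) and H3K4me1 (right); bars are the intervals of the 10 genes and diamonds all intervals of the mark. In both WT livers the bars stand above the diamonds, 71.3% and 60% against 52.2% and 51.5% for H3K27ac. The H3K27ac bars stand below them in the Cpt2-null livers and in Ppara KO replicate 2 (44.3% against 48.8%). In Ppara KO replicate 1 the H3K27ac bar stands above (54.8% against 51%).

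H3K9ac was measured in 1 library per genotype, positions only, so its calls have no replicate check. Of the 103 intervals 62 were called in both livers, 24 in WT alone and 17 in Cpt2 KO alone, beside 55.2%, 20.8% and 23.9% over all H3K9ac intervals. Pparg had 1 interval, called in both livers, and Nr1i2 and Nr3c1 had 4 each, all called in both. Nr1h4 had 12 in both, 12 in WT alone and 0 in Cpt2 KO alone. Ppard had 8 in both, 2 in WT alone and 10 in Cpt2 KO alone. Nr0b2 had 7 in both and 3 in WT alone, and Nr2f6 5 in both, 4 in WT alone and 3 in Cpt2 KO alone. So H3K9ac and H3K27ac calls were both fewer in Cpt2 KO at Nr1h4, while at Ppard they went opposite ways.

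**Figure D5:**
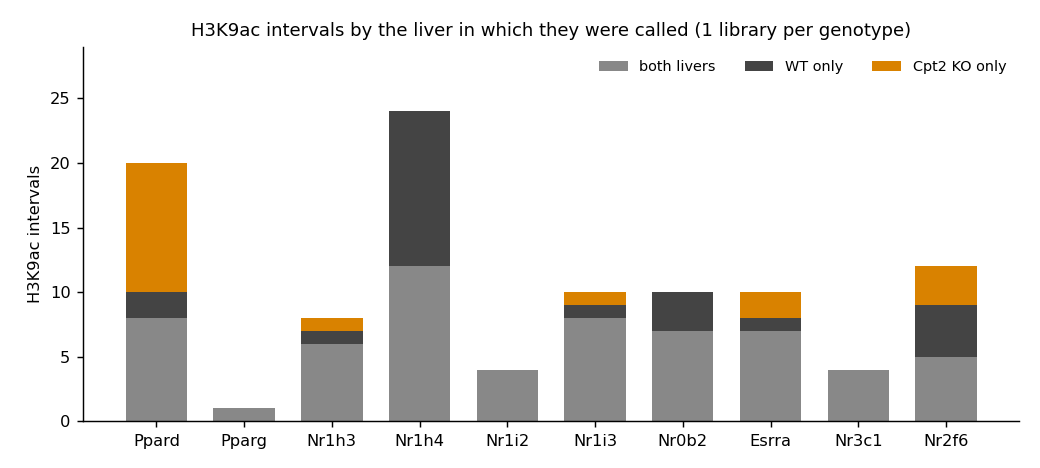
Number of H3K9ac intervals at each of the 10 genes, stacked by whether they were called in both livers, in the WT liver alone or in the Cpt2 KO liver alone, with 1 library per genotype. Nr1h4 has 12 in WT alone and 0 in Cpt2 KO alone, and Ppard 2 and 10.

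The partners, helpers and targets of these receptors were described by the strongest H3K27ac interval of each gene called in all 8 livers. Over 11261 genes 1.75% were higher and 4.25% lower without Ppara, and 4.7% higher and 6.17% lower without Cpt2. Among 21 of 25 other nuclear receptors with such an interval (20 distinct intervals, since Nr1d1 and Thra share 1), 0 were higher and 5 lower without Ppara, and 0 higher and 2 lower without Cpt2. Among them Nr2c2, Esrrg, Nr2f2 and Thrb fell without Ppara, by log2 -0.88, -0.82, -0.66 and -0.60, and Rora without Cpt2, by log2 -0.87. These differences are averages over the other gene's states. For Esrrg Ppara KO minus WT was log2 -0.10 and DKO minus Cpt2 KO log2 -1.53, with folds of 10.2 and 10.5 for WT, 9 and 10.2 for Ppara KO, 23 and 18.4 for Cpt2 KO and 8.8 and 6.35 for DKO. For Rora Cpt2 KO minus WT was log2 -1.45 and DKO minus Ppara KO log2 -0.28. Thrb is a thyroid hormone receptor and the others are orphan receptors. Without centring the median of all intervals moved from -0.01 to 0.02 for Ppara and from -0.01 to 0.25 for Cpt2. Each shift was smaller than any averaged difference of a list gene given for that deletion. Whether the list genes still pass without centring or with a library left out was not examined. Among 12 coregulators 0 passed in limma in either comparison (2 and 3 at an unadjusted p under 0.05).

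Among 11 glucocorticoid receptor targets 3 were higher without Ppara and 0 lower. Tat and Tdo2, which break down tyrosine and tryptophan, were higher by log2 0.58 and 0.61 (limma adjusted p = 0.0257 and 0.047). Igfbp1, which binds insulin-like growth factors, was higher by log2 0.66 (limma adjusted p = 0.0469). Fkbp5, a chaperone partner of the receptor, had a difference of log2 -0.51 that did not pass (adjusted p = 0.0524). The list's median was log2 0.24 beside -0.05 over all genes, and 0.21 over its 10 distinct intervals, since Mt1 and Mt2 share 1. Tat H3K27ac was 18.6 and 19.4 for WT, 26.6 and 16.6 for Cpt2 KO, 26.9 and 28.1 for Ppara KO and 29.7 and 38.7 for DKO, so all Ppara-null livers lay above the others. Tdo2 was 15.7 and 12.2 for WT, 19.7 and 13.3 for Cpt2 KO, 17.9 and 21.2 for Ppara KO and 29.4 and 26.2 for DKO, with 1 Cpt2 KO liver inside the Ppara-null range. Of 7 PXR and CAR targets with an interval (of 11) 1 was higher without Ppara, the cytochrome P450 gene Cyp2c55, by log2 0.70 (SE 0.19, limma adjusted p = 0.0416). Of 7 PPARG and PPARD targets (of 10) 1 was lower, the lipid droplet gene Plin4, by log2 -0.59. For Cpt2 0 of these lists' genes passed in limma, with 0, 0 and 3 at an unadjusted p under 0.05 for the glucocorticoid, drug and PPAR targets. Of 8 LXR targets (7 distinct intervals, Abcg5 and Abcg8 sharing 1), 6 FXR targets and 7 ERR targets, a list that holds Esrra itself and shares Pdk4 with the PPAR targets, 0 passed for either gene in limma (at an unadjusted p under 0.05, 1, 2 and 0 for Ppara and 1, 1 and 0 for Cpt2). In H3K4me1 0 genes of any list passed in limma, with up to 6 of a list at an unadjusted p under 0.05.

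Across the 8 livers the passing intervals resembled the strongest H3K27ac intervals of other genes, by Pearson's r of the centred log2 fold. The Nr1h4 interval was most like those of Pcnx (0.979), Msrb1 (0.977) and Zcchc24 (0.971). The Nr2f6 interval was most like Cramp1l (0.989), Itpk1 (0.987) and Eloa (0.986), and the Ppard interval most like Pithd1 (0.967). The Nr1i3 domain was most like Gm44812 (0.958) and Lgals1 (0.953), and the Nr0b2 interval most like Aldh1l1 (0.971). These are the highest of 11261 genes over 8 libraries that share genotype groups, and they carry no test.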

How the data were processed

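Liver chromatin was profiled by ChIP-seq for H3K27ac and H3K4me1 in 4 genotypes, 2 livers each, and for H3K9ac in 1 WT and 1 Cpt2 KO liver. BWA, MACS2 2.1.0 and mm10 are named in the submitters' processing notes. The authors deposited peak lists per library, with a fold enrichment (a ratio to pooled input) and a −log10 q-value for each peak, and consensus intervals per mark; how these were merged is not given in the sources used here. The pooled inputs were not analysed here, and the peak names of 1 library (H3K27ac, Ppara KO replicate 2) carry another build's name although the list was used as mm10.

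Intervals were assigned to a gene by midpoint, in the body or within 10 kb, and given the highest fold of the overlapping peaks (1 base or more). For intervals called in all 8 libraries, log2 fold was centred on each library's median and fitted in limma 3.58.1 (R 4.3.3) with 4 genotype means and a trended variance. Differences are Ppara-null minus intact and Cpt2-null minus intact, each averaged over the other gene, and their interaction. P-values were two-sided and adjusted by Benjamini-Hochberg over all such intervals of the mark (threshold 0.05). The script was tested on simulated data. A call was gained or lost when at least 3 of 4 livers of one state and 0 of the other had a peak. Promoter windows and gene bodies are RefSeq's for GRCm38.p6, the assembly mm10 names.

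The 10 genes and all gene lists were chosen with earlier results of these data known. Named intervals were the strongest one called in all 8 libraries, those over a start, those past the threshold, those with gained or lost calls and those called in 1 genotype alone; likeness was ranked by Pearson's r. Alternatives were no centring, quantile normalization, the replicate number as a block, the smallest peak width as a covariate, uncalled values filled with the library's lowest fold, 50% overlap, the width-weighted mean fold, a −log10 q of at least 10, a 2 kb window and leaving out each library. Peaks give no read depth, so no interval for counting error was computed. Values of some list genes are not reported here.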

Additional observations from a re-analysis of the deposited data

How the results depend on the processing

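The counts of passing intervals are small, and 1 or 2 intervals move them. For Ppara H3K27ac (2 as reported) 1 passed without centring, with the width covariate, with a −log10 q of at least 10 and within 2 kb, and 15 of 80 with uncalled values filled. For Cpt2 H3K27ac (4 as reported) 6 passed without centring, 2 with quantile normalization, 0 with the width covariate and 29 of 80 with filled values; more intervals enter the filled fit. Calls that differed by Ppara (2) fell to 1 with a −log10 q of at least 10 and to 1 when all 4 livers had to have the call, and calls that differed by Cpt2 (7) to 1 under the latter. For H3K4me1 those by Ppara (7) became 11 with a −log10 q of at least 10 and 0 with all 4 livers, and those by Cpt2 (6) 0 with all 4 livers. The count called in WT alone (13) was 8 with a −log10 q of at least 10, an alternative chosen after seeing the data. The Nr2f6 Cpt2 difference was 0.01 with the width covariate. The causes were not tested.

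Leaving out 1 library at a time gave 0 to 3 H3K27ac intervals for Ppara, 1 to 5 for Cpt2 and 0 for the interaction. It gave 1 for Cpt2 without Cpt2 KO replicate 1 or Ppara KO replicate 1, and 0 for Ppara without Cpt2 KO replicate 2, Ppara KO replicate 1, Ppara KO replicate 2 or DKO replicate 2. With the rule eased to 2 of 3 livers, calls by Ppara ranged from 2 to 16 and by Cpt2 from 7 to 24 for H3K27ac, and from 7 to 38 and 6 to 32 for H3K4me1. Intervals called in WT alone ranged from 13 to 28, and those called in all but WT from 3 to 6. H3K4me1 gave 0 to 2 intervals for Ppara, 2 of them without Cpt2 KO replicate 1, and 0 for Cpt2 and for the interaction.

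A replicate block left the Ppara count of H3K27ac intervals at 2 and gave 3 by Cpt2 loss, where the Ppard interval was at an adjusted p of 0.0505, and it changed no other call. Deviations of same-numbered livers correlated at -0.06 to 0.17 for H3K27ac. For H3K4me1 they correlated at -0.49 between Cpt2 KO and Ppara KO and at -0.07 to 0.10 otherwise. In that pair the H3K4me1 peaks of Cpt2 KO replicate 1 and Ppara KO replicate 2 covered 41.38 and 42.66 Mb. Those of Cpt2 KO replicate 2 and Ppara KO replicate 1 covered 53.54 and 53.32 Mb. The values do not show that same-numbered livers were paired.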
